A study of Mus musculus with 8 samples.

Results

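The genes described here encode the proteasome, its activators and its assembly factors. They were chosen by symbol alone, as every gene named Psm, then 1 letter from a to g, then a number, which gave 48 of the 34299 genes in the count table. Bulk RNA-seq libraries had been made from whole mouse brain in 3 groups: wild-type (WT) fetuses at gestation day 15 (n = 3), Cav1 knockout (KO) fetuses of the same day (n = 3) and KO brains at week 70 (n = 2). Cav1 encodes caveolin 1, a coat protein of membrane pits called caveolae. No group received a treatment per the labels. The strain, the knocked-out allele and the sex of the animals are not given in the sources used here. The labels call the fetal replicates biological, and for the week 70 libraries nothing says whether the replicates are separate animals. P-values between the KO ages therefore measure only the spread between libraries, estimated over the KO fetal (n = 3) and week 70 (n = 2) libraries together. WT brains of week 70 were not analysed here, so age was compared in KO brain.

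The proteasome is the large protease that degrades ubiquitin-tagged proteins in the cytosol and nucleus. Its 20S core is a barrel of stacked rings, alpha subunits at the ends and beta subunits inside, and 3 of the beta subunits carry the proteolytic sites (Psmb5, Psmb6 and Psmb7). The 19S regulatory particle binds the ubiquitin-tagged protein, removes the tag and threads the chain into the core with a ring of ATPases. Interferon-responsive cells exchange the catalytic subunits for Psmb8, Psmb9 and Psmb10, which gives the immunoproteasome, known for cutting peptides for display on MHC class I. In nervous tissue the proteasome is known for the turnover of synaptic and misfolded proteins.

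Total counts ran from 14110031 to 20833397 per library and were lower in the 3 KO fetal libraries than in the other 5. Cav1 itself held 367, 218 and 329 counts in the WT libraries, 0, 3 and 1 in the KO fetal libraries and 1 and 5 at week 70. In bulk tissue, fewer cells of a type and less RNA per cell cannot be told apart. Levels of cell type marker genes differed between the fetal groups. The 5 endothelial markers were all lower in KO, with summed levels of 140.7 to 182.7 CPM (counts scaled to the size of the library, as processed below) in WT and 45.2 to 59.3 in KO. The 5 progenitor markers were also all lower, from 976.2 to 1085 CPM in WT against 349.3 to 380.5. The 5 neuronal markers summed to 2413 to 2702 CPM in WT and 1749 to 1907 CPM in KO, with 2 higher and 3 lower, and the 4 astrocyte markers to 222.4 to 284.9 CPM and 106.7 to 120.7 CPM, with 1 higher, 2 lower and 1 not called. The 5 erythroid markers summed to 725.5 to 819 CPM in WT and 2465 to 3031 in KO. The part of these differences in the results below was not tested.

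In KO fetal brain, the genes of the 20S core were higher than in WT, while those of the 19S particle were split. Of 44 proteasome genes with enough counts to test, 27 were higher in KO, 9 were lower and 8 did not pass the threshold of 0.05 on the adjusted p of edgeR's quasi-likelihood test. Over all 19147 genes tested, 62.6% were called, 30.1% as higher and 32.5% as lower. All 14 constitutive core subunits rose, with a median log2 fold change of 0.78 against 0.03 over all genes. The 17 subunits of the 19S particle counted here have Psm names, so Sem1 and Adrm1 are given separately below. Of these 17 subunits 7 rose, 7 fell and 3 were not called, with a median of -0.12. The remaining tested genes were Psmb10, which rose, 7 assembly chaperones, of which 5 rose, and 5 activators or inhibitors, of which 2 fell. Under upper-quartile scaling, which moved the median of all genes from 0.03 to 0.20, the split was 32 higher and 5 lower among the proteasome genes, with all 14 core subunits still higher, and 7627 higher to 4915 lower over all genes, against 5768 to 6225 in the first scaling. The CPM of 25 proteasome genes were higher in every KO library than in any WT library, those of 12 were lower and those of 7 overlapped, against 68.5% of all genes without overlap, 29.7% higher and 38.7% lower.

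A correction for transcript length and GC content made the differences smaller in size for 34 of the 44 genes and larger for 10, among them Psmc5, Psmd7, Psmd9, Psmd13 and Psmb10, named for this change. It was fitted because long and GC-rich genes were lower in KO over all genes (Spearman rho of -0.39 with length and -0.48 with GC, across 19031 genes, which are not independent replicates). The constitutive core subunits have short transcripts, with a median of 1162.5 bases, against 1636 bases for the 19S subunits. With the correction 18 proteasome genes were higher and 11 lower, against 50.3% of all genes called, 26.2% as higher and 24.1% as lower. The core then had 11 of 14 subunits higher, with a median of 0.32, and the 19S particle had 3 higher, 9 lower and 5 not called, with a median of -0.15. Of the 27 genes first called higher, 17 were again called higher, 8 were not called, and Psmd12 and Psmd14, named for this turn, were called lower. All 9 genes first called lower were called lower again.

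**Figure D1:**
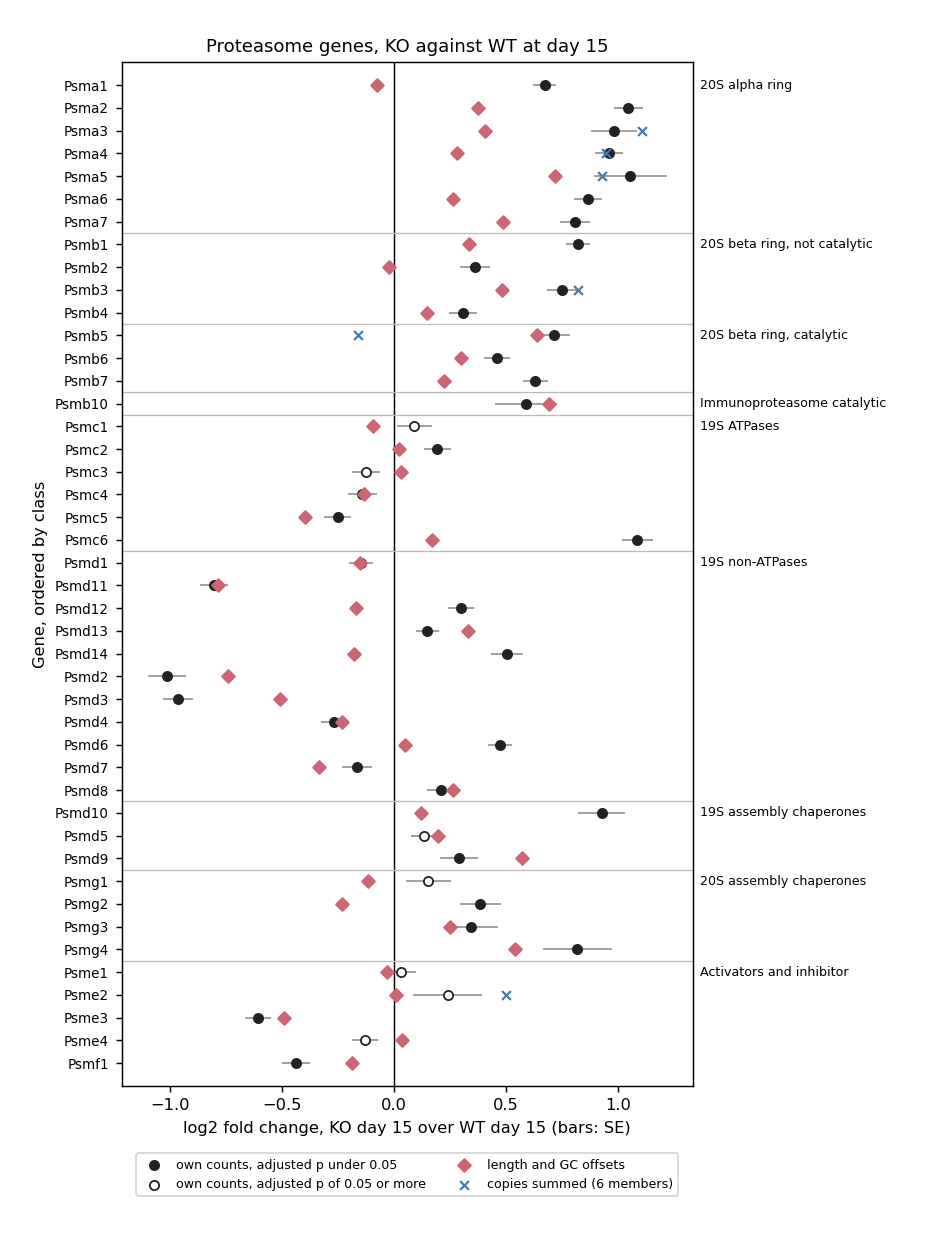
Log2 fold change of KO over WT at day 15 for the 44 tested proteasome genes, grouped by class, with standard errors (SE) as bars. Filled circles passed the threshold in the fit without offsets, diamonds give the fit with length and GC offsets, and crosses give the 6 genes whose counts were summed with their copies. All 14 core subunits lie to the right of 0 by their own counts, and the diamonds of the alpha ring lie closer to 0.

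From KO fetal brain to KO brain at week 70, the immunoproteasome subunit Psmb10 rose, and Psmb8 and Psmb9, with few fetal counts, were higher. The core assembly chaperones Psmg1 to Psmg4 fell without the length and GC correction, while their median was positive with it. Of 46 tested genes 23 were higher at week 70, 14 were lower and 9 were not called. Over all 20000 genes tested 82.0% were called, 37.6% as higher and 44.4% as lower, with a median of -0.19. Psmb8, Psmb9 and Psmb10 were all higher, with a median of 3.11 on the log2 scale, which is the value of Psmb8. Psmb8 and Psmb9 passed the filter on low counts through their week 70 libraries, so their direction was largely set by the filter. Their calls and this median do not test that direction. The 14 constitutive core subunits were divided into 6 higher, 6 lower and 2 not called, and the 17 subunits of the 19S particle into 10 higher, 2 lower and 5 not called. Psmg1 to Psmg4 all fell, with a median of -0.75, or 0.19 with the length and GC offsets. The CPM of 28 genes were higher in both week 70 libraries than in any KO fetal library, those of 14 were lower and those of 4 overlapped, against 87.7% of all genes without overlap, 42.2% higher and 45.5% lower. Both comparisons use the same 3 KO fetal libraries. Cell type markers also differed between the KO ages. The 4 oligodendrocyte markers summed to 65.4 to 69.3 CPM in KO fetal brain and 12137 to 12430 CPM at week 70, and the 4 astrocyte markers to 106.7 to 120.7 CPM and 5210 to 5475 CPM. The neuronal markers summed to between 1749 and 1907 CPM in KO fetal brain and between 6410 and 6543 CPM at week 70. The progenitor markers summed to between 349.3 and 380.5 CPM and between 199.1 and 212.6 CPM, respectively. The part of these cells in the age differences was not tested.

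The age comparison also depended on the correction and on the gene copies described next. With length and GC offsets 36 proteasome genes were higher and 4 lower, against 79.0% of all genes called, 39.1% as higher and 39.8% as lower. All 23 genes first called higher were again called higher. Of the 14 genes first called lower, 3 were called lower again, 4 were not called and 7 were called higher (Psma1, Psma4, Psma6, Psmb2, Psmc6, Psmg2 and Psmg4, named for this turn). With the counts of copies added, 19 genes were higher and 17 lower, against 81.9% of all genes called, 37.6% as higher and 44.4% as lower.

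**Figure D2:**
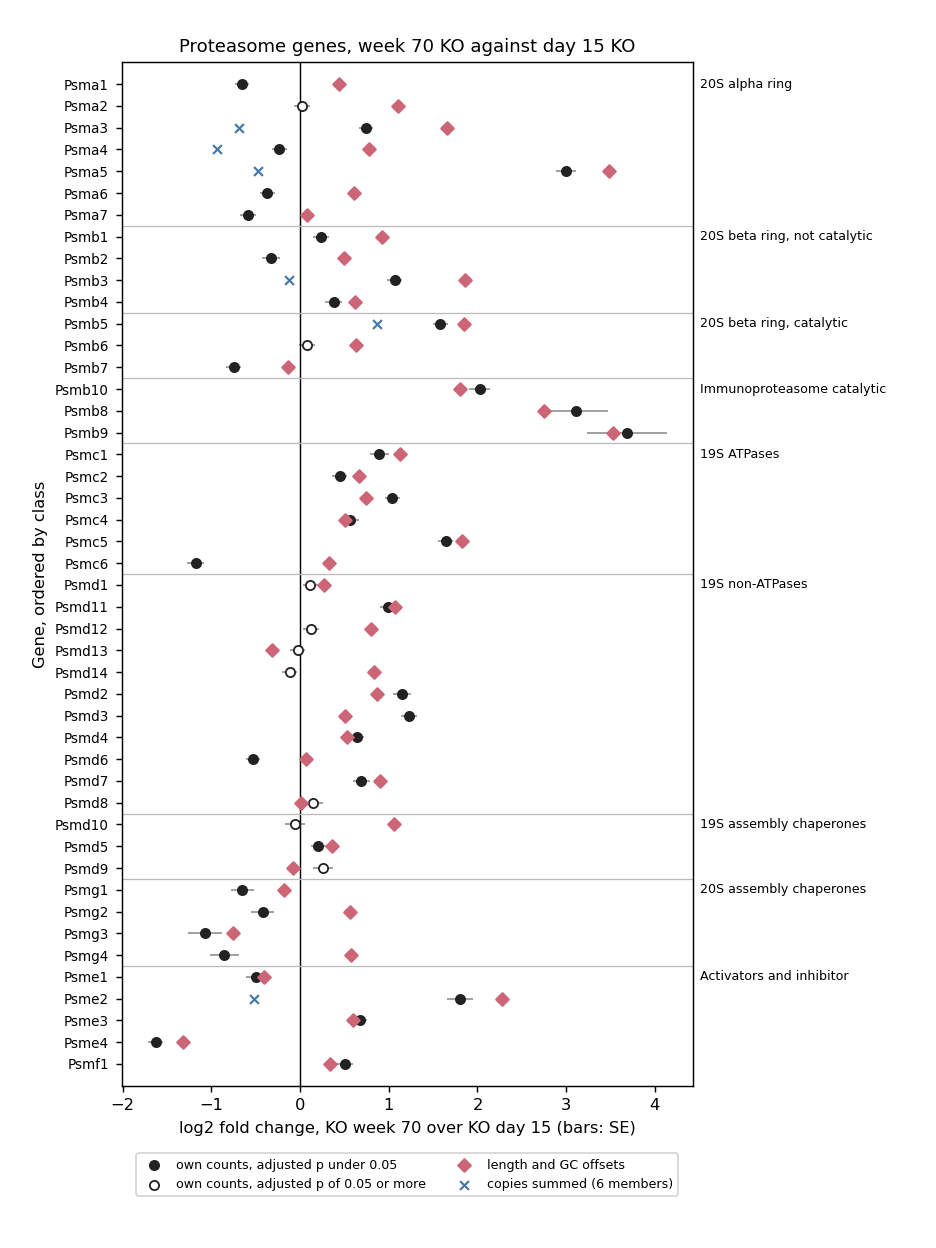
Log2 fold change of KO week 70 over KO day 15 for the 46 tested proteasome genes, with SE as bars and the same symbols as for the genotype comparison. Psmb8, Psmb9 and Psmb10 lie between 2.03 and 3.68 by their own counts, and the crosses of Psma3, Psma5 and Psme2 lie on the other side of 0 from their circles.

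Some proteasome genes have copies of similar sequence elsewhere in the genome, mostly processed pseudogenes, which are copies of a spliced messenger RNA put back into the genome. GENCODE release M21 (GRCm38) held 36 copies, at 85% identity or more, of 17 of the 48 genes. Of these copies 28, belonging to 15 genes, were rows of the count table. For 6 genes the copies held over 10% of the summed counts in every fetal library. How the authors' counting treated reads that match several places is not given in the sources used here. Of all stretches of 100 bases in the transcript, 27.5% of those of Psma5 occurred unchanged in an annotated copy. For Psmb5 this share was 23.6%, and for Psme2 it was 44.5%. The stretches below are single examples where gene and copy differ at few bases or none, and do not stand for the whole transcript. Each is a coding stretch of 100 bases without an insertion or deletion, in the sense direction, with positions counted from the first base of the start codon of the parent gene and with capitals only at bases that differ from it.
Psma5, coding bases 201 to 300: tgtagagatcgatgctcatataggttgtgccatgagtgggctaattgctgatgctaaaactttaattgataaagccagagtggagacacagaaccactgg
Psma5-ps, the matching stretch: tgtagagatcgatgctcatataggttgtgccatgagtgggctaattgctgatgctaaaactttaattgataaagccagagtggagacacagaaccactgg
Gm12989, the matching stretch: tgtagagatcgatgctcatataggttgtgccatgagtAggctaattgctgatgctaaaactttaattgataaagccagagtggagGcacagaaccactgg
Psmb5, coding bases 101 to 200: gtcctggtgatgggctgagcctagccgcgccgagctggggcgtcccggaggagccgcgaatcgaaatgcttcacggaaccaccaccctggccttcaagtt
Gm3375, the matching stretch: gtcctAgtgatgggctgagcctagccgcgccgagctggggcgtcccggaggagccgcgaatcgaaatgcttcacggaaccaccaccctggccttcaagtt
Psme2, coding bases 201 to 300: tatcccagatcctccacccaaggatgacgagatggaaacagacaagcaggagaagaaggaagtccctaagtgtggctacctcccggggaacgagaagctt
Psme2b, the matching stretch: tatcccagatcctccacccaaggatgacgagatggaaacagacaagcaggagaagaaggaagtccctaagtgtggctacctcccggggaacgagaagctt

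Psma5, an alpha-ring gene at chr3:108256926-108279974 (GRCm38, plus strand), matched Psma5-ps at chr10:85313488-85314439 without a difference in this stretch. Gm12989, at chr4:135715868-135716598, differed there by G238A and A286G. Over their whole alignments the identity to Psma5 was 98.6% for Psma5-ps and 97.5% for Gm12989. Psmb5 lies at chr14:54614119-54618022 on the minus strand, and Gm3375, at chr7:3181093-3181888, differed by G106A in the stretch shown and was 98.9% identical over its alignment. Psme2, at chr14:55587441-55591113 on the minus strand, matched the annotated protein-coding gene Psme2b at chr11:48945354-48946190 in the stretch shown and at 99.4% over the alignment. Psma3, at chr12:70974621-70996347, had a copy, Gm13835 at chr6:31141979-31142663, that was 100% identical over its aligned part.

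The division of counts between a gene and its copies differed between fetal and week 70 libraries. Any difference between the ages in library making or processing could not be told apart from age here. Copies held 92.6% ± 0.971 (SD, n = 3) of the summed counts of Psma5 and its copies in WT fetal brain, 92.0% ± 0.430 (n = 3) in KO fetal brain and 10.6% ± 0.202 (n = 2) at week 70. For Psme2 the share of Psme2b was 81.6% ± 1.47 in WT, 84.5% ± 1.41 in KO and 22.6% ± 3.75 at week 70. Psma3 gave 71.9%, 74.2% and 30.3%, Psmb3 58.3%, 60.3% and 9.24%, and Psma4 40.5%, 40.0% and 2.77% in the same order. In these 5 genes, the shares of the fetal groups lay within 3 percentage points of each other. Gm3375 was the exception, with 67.8% ± 1.05 of the sum with Psmb5 in WT, 40.6% ± 4.88 in KO and 3.63% ± 0.496 at week 70. The fold changes of Psma5, Psmb3, Psmb5 and Psme2 are therefore given below from a gene's own counts and from the sum with its copies. For Psma3 and Psma4 this is done for the age difference only. Other genes with copies are described from their own counts, and changes of sign with copies are listed in the closing section. The other 33 genes had no copy in the count table, and in 9 of the 15 genes with one the copies were under 10% of the sum in at least 1 fetal library.

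**Figure D3:**
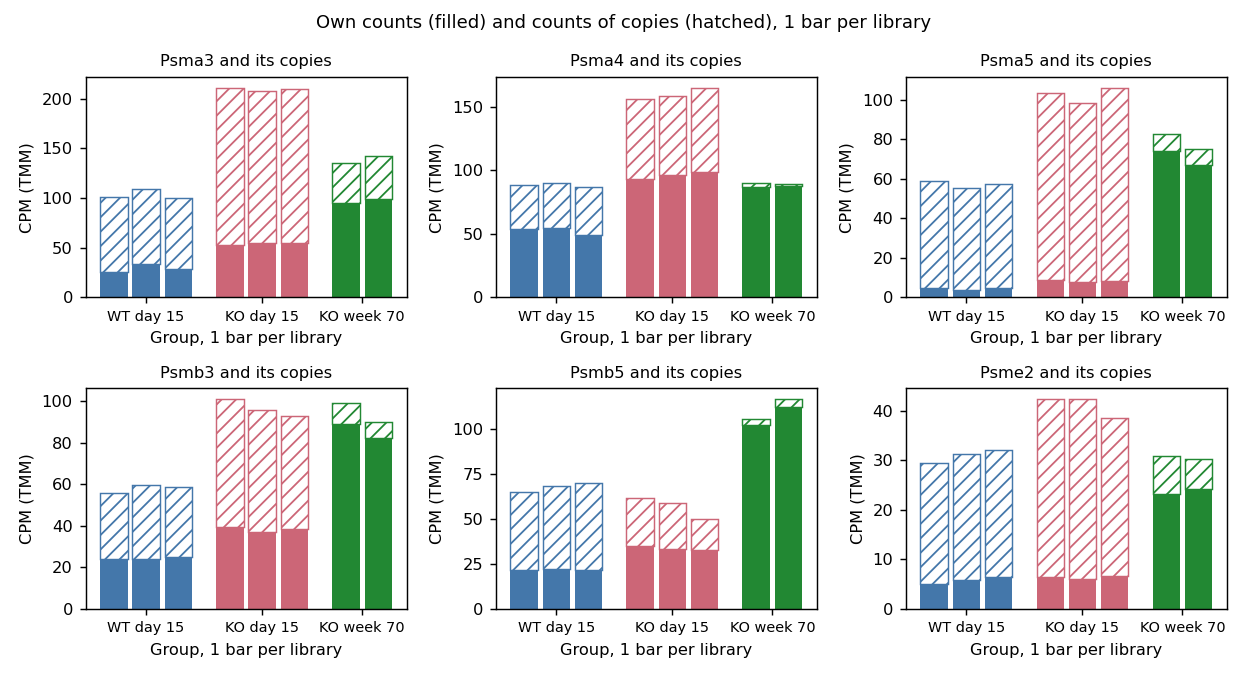
CPM of 6 proteasome genes (filled) and of their copies in the count table (hatched), 1 bar per library. In the fetal libraries most of the bar of Psma3, Psma5, Psmb3 and Psme2 belongs to the copies, and at week 70 most of every bar belongs to the gene itself.

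The alpha ring forms the ends of the core and its gate. All 7 alpha subunits rose in KO fetal brain, with a median of 0.96 on the log2 scale, and no CPM of a KO library overlapped one of WT in any of the 7, against 29.7% of all genes tested that were higher without overlap. With length and GC offsets 6 of the 7 were called higher, with a median of 0.37, against 26.2% of all genes called higher. Psma1 changed least of the ring. It stood at 91.7, 88.7 and 89.6 CPM in WT, at 136, 132 and 136 CPM in KO fetal brain and at 91.9 and 91.4 CPM at week 70. The KO fetal libraries are the high ones, and week 70 overlaps WT. Psma1 rose by 0.67 ± 0.05 (SE) in KO fetal brain (adjusted p = 1.23e-06), and with the offsets its value was -0.08 and not called. Between KO ages it fell by 0.66 ± 0.08 (adjusted p = 2.91e-05) on its own counts and was higher by 0.44 with the offsets. Psma2 was at 59.6, 61.6 and 57.5 CPM in WT, 109, 115 and 122 CPM in KO fetal brain and 124 and 128 CPM at week 70. Its fetal rise of 1.04 ± 0.06 became 0.37 with the offsets and was called in both fits. The age difference of Psma2 was 0.02 and not called, and 1.10 and called with the offsets.

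Psma5 showed the widest range of the ring, and its direction with age differed between its own counts and the sum with its copies. Its own level was 4.57, 3.47 and 4.63 CPM in WT, 8.79, 7.57 and 8.42 CPM in KO fetal brain and 73.9 and 67.2 CPM at week 70, with no overlap between groups. On its own counts Psma5 rose by 1.06 ± 0.16 in KO fetal brain (adjusted p = 0.000219) and by 2.997 ± 0.11 with age (adjusted p = 2.37e-09). With the copies summed, the fetal rise was 0.93 and called, and the age difference was -0.48 and called as lower. With both the copies and the offsets, the age difference was 0.01 and not called. Psma3 and Psma4 were named after their values were seen. With age Psma3 was at 0.74 on its own counts, -0.69 with copies and 0.22 with copies and offsets. Psma4 was at -0.24 on its own counts, -0.93 with copies and 0.08 with both on the log2 scale. Its call on its own counts was lost without KO fetal replicate 2 (adjusted p = 0.0744) and without week 70 replicate 1 or 2 (adjusted p = 0.0520 and 0.0622). The other 2 alpha genes, Psma6 and Psma7, rose in KO fetal brain by 0.87 and 0.81 and fell with age by 0.37 and 0.58, and with the offsets the age values were 0.60 and called for Psma6 and 0.07 and not called for Psma7.

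The 4 beta subunits without a proteolytic site, Psmb1 to Psmb4, all rose in KO fetal brain, with a median of 0.56 and no overlap of CPM between the fetal groups. Over all genes tested 30.1% were called higher and 29.7% were higher without overlap. With the offsets Psmb1 and Psmb3 were called higher, and Psmb2 and Psmb4 were not called, against 26.2% of all genes called higher. Psmb1 rose most, from 98.2, 94.3 and 94.9 CPM in WT to 162, 154 and 160 CPM in KO fetal brain, with 215 and 185 CPM at week 70. Its fetal difference was 0.82 ± 0.05 (adjusted p = 4.11e-07). Its age difference of 0.23 ± 0.09 (adjusted p = 0.0373) was called, and was lost without any single one of the 3 KO fetal libraries (adjusted p = 0.0740, 0.146 and 0.0598) and fell to 0.13 without week 70 replicate 1 (adjusted p = 0.250). Psmb4 was at 117, 114 and 109 CPM in WT, 142, 123 and 131 CPM in KO fetal brain and 191 and 176 CPM at week 70. It rose by 0.31 ± 0.06 in KO fetal brain (adjusted p = 0.00182) and by 0.38 ± 0.09 with age.

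Psmb2 and Psmb3 moved in opposite directions with age on their own counts. Psmb2 was at 59.4, 57.7 and 56.9 CPM in WT, 76.5, 69.8 and 64.2 CPM in KO fetal brain and 62.7 and 56.5 CPM at week 70. Its age difference was -0.33 ± 0.10 (adjusted p = 0.0108), not called without KO fetal replicate 1 (adjusted p = 0.0503) or week 70 replicate 2 (adjusted p = 0.0663), and 0.50 and called as higher with the offsets. Psmb3 stood at 24.1, 23.7 and 24.8 CPM in WT, 39.3, 37.2 and 38.4 CPM in KO fetal brain and 89.1 and 82.4 CPM at week 70. It rose by 0.75 ± 0.07 in KO fetal brain and by 1.07 ± 0.09 with age. With its 6 copies summed the fetal rise was 0.82 and the age difference was -0.13 and not called.

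The constitutive catalytic subunits, Psmb5 (chymotrypsin-like activity), Psmb6 (caspase-like) and Psmb7 (trypsin-like), all rose in KO fetal brain, with a median of 0.63. With the offsets their median was 0.30 and all 3 were again called higher. Of all genes, 30.1% were called higher without the offsets and 26.2% with them. Psmb5 was at 21.4, 22.2 and 21.7 CPM in WT, 34.8, 33.4 and 32.6 CPM in KO fetal brain and 103 and 112 CPM at week 70, with no overlap between groups. Psmb5 rose by 0.71 ± 0.07 in KO fetal brain (adjusted p = 1.11e-05) and by 1.58 ± 0.08 with age (adjusted p = 3.23e-08). Summed with Gm3375, the fetal difference was -0.16 ± 0.08 and not called (adjusted p = 0.0864), and the age rise was 0.87 and called. The counts of Gm3375 were 913, 902 and 939 in WT and 454, 458 and 309 in KO fetal brain, so that the copy was lower where the gene was higher. The difference in Gm3375 alone was not tested.

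Psmb6 and Psmb7 have copies that held under 1% of the summed counts in every library. Psmb6 was at 91.9, 92.8 and 94.4 CPM in WT, 126, 123 and 112 CPM in KO fetal brain and 142 and 130 CPM at week 70. It rose by 0.46 ± 0.06 in KO fetal brain (adjusted p = 4.76e-05), and its age difference was 0.08 ± 0.09 and not called, though called at 0.63 with the offsets. Psmb7 was at 95.9, 88.7 and 91.9 CPM in WT, 140, 130 and 133 CPM in KO fetal brain and 81.4 and 89.4 CPM at week 70, so that the KO fetal libraries were the high ones. It rose by 0.63 ± 0.06 in KO fetal brain (adjusted p = 3.66e-06) and fell by 0.75 ± 0.09 with age (adjusted p = 1.69e-05). With the offsets its age value was -0.14 and not called.

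The immunoproteasome subunits were rare in fetal brain of both genotypes and higher at week 70. Psmb8, at chr17:34197721-34201454, replaces Psmb5 and held 7, 13 and 7 counts in WT, 9, 7 and 8 in KO fetal brain and 58 and 71 at week 70. Psmb9, at chr17:34181987-34187764, replaces Psmb6 and held 10, 3 and 3 counts, then 5, 3 and 3, then 49 and 41. Neither passed the filter on low counts in the fetal comparison, where their summed counts gave a ratio of KO to WT of 1.02 for Psmb8 (exact 95% interval 0.563 to 1.83) and 0.788 for Psmb9 (0.331 to 1.81), intervals that cover counting error only. A difference within those bounds was not detectable at this depth. Psmb10, at chr8:105935735-105938444, replaces Psmb7 and was at 9.10, 7.60 and 10.5 CPM in WT, 13.7, 13.3 and 11.4 CPM in KO fetal brain and 59.6 and 52.1 CPM at week 70. The groups of Psmb10 did not overlap.

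Psmb10 rose by 0.59 ± 0.14 in KO fetal brain (adjusted p = 0.00387), or by 0.69 with the offsets. With age Psmb10 rose by 2.03 ± 0.12 (adjusted p = 5.80e-08). Psmb8 was higher with age by 3.11 ± 0.36. Its summed counts of 24 and 129 gave a ratio of 9.36 with a counting interval of 6.02 to 15.1. Psmb9 was higher by 3.68 ± 0.45. Its summed counts of 11 and 90 gave a ratio of 14.2 with a counting interval of 7.59 to 29.5. Psmb8 and Psmb9 passed the filter through their older libraries, so their direction was largely set by it and no p-value is given. Their counting intervals cover counting error only. With length and GC offsets the differences were 1.80 for Psmb10, which was called, 2.76 for Psmb8 and 3.53 for Psmb9. No copy of these 3 genes was found in the annotation.

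Set against the constitutive subunits per transcript length, the immunoproteasome subunits made up 3.24% ± 0.401 (n = 3) of all catalytic subunits in WT fetal brain, 3.25% ± 0.179 (n = 3) in KO fetal brain and 11.5% ± 0.871 (n = 2) at week 70. The single libraries gave 3.27%, 2.82% and 3.62% in WT, 3.35%, 3.35% and 3.04% in KO fetal brain and 12.2% and 10.9% at week 70, so the fetal genotypes overlap and week 70 stands apart. Adding the counts of copies left the shares at 2.64% in WT, 3.0% in KO fetal brain and 11.4% at week 70. Psmb10 made up most of this share. Its level relative to Psmb10 and Psmb7 together was 7.99% ± 1.08 in WT, 7.79% ± 0.641 in KO fetal brain and 36.7% ± 3.74 at week 70. The matching shares were 1.13%, 0.749% and 2.15% for Psmb8 beside Psmb5, and 0.166%, 0.103% and 1.28% for Psmb9 beside Psmb6. These are shares of messenger RNA in whole brain, and no test was made on them.

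**Figure D4:**
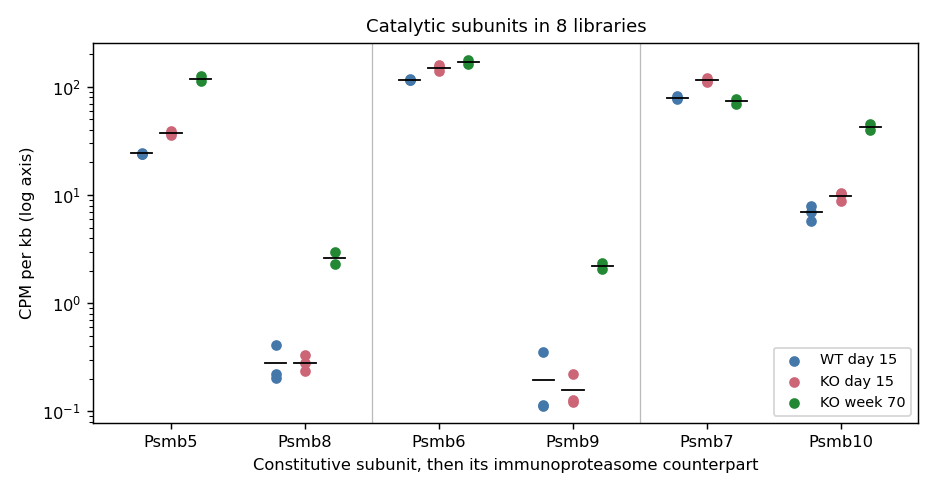
Level in CPM per kb of transcript, on a log axis, of the 3 constitutive catalytic subunits and of the immunoproteasome subunit that replaces each, 1 point per library with a bar at the mean. The immunoproteasome subunits lie below their constitutive counterparts in all 8 libraries, and the week 70 points of Psmb8, Psmb9 and Psmb10 lie above the fetal ones.

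Markers of microglia and leukocytes, cells that express the immunoproteasome, moved with it between the ages. All 7 of these markers rose with age, and their summed level was 39.0 to 53.6 CPM in WT fetal brain, 27.6 to 31.6 CPM in KO fetal brain and 329.7 to 400.6 CPM at week 70, with none at or under 3 counts in every library of a group. Between the fetal genotypes these markers did not move as 1 group, since 3 were called higher in KO, 2 were called lower and 2 were not called. The 5 endothelial markers rose as well, to 267.3 to 286.3 CPM. The part of these cells in the rise of Psmb8, Psmb9 and Psmb10 was not tested.

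The ATPase ring of the 19S particle, Psmc1 to Psmc6, had a fetal median of -0.02, with 2 members higher, 1 lower and 3 not called, against 30.1% higher and 32.5% lower over all genes. The sign of this median was positive under upper-quartile scaling (0.15). Psmc6 stood apart from the other 5, which lay between -0.25 and 0.19. It was at 112, 116 and 114 CPM in WT, 222, 214 and 246 CPM in KO fetal brain and 107 and 109 CPM at week 70, so that only the KO fetal libraries were high. Psmc6 rose by 1.09 ± 0.07 in KO fetal brain (adjusted p = 3.58e-07) and fell by 1.18 ± 0.10 with age (adjusted p = 9.66e-07). Its transcript is the poorest in GC of all 48 genes, at 37.0%, and with the offsets the fetal rise was 0.17 (adjusted p = 0.0164) and the age difference was 0.32 and called as higher.

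Psmc5 was the ATPase that fell, from 89.7, 88.3 and 84.9 CPM in WT to 74.3, 68.4 and 64.9 CPM in KO fetal brain, with 233 and 230 CPM at week 70. Its fetal difference was -0.25 ± 0.06 (adjusted p = 0.00405), or -0.08 and not called under upper-quartile scaling, and with age it rose by 1.64 ± 0.09 (adjusted p = 2.61e-08), the most of the ring. Psmc1 was at 97.5, 104 and 98.7 CPM in WT, 114, 94.4 and 92.3 CPM in KO fetal brain and 208 and 190 CPM at week 70. Its fetal groups overlapped and its difference of 0.09 was not called, while with age it rose by 0.89 ± 0.11. Psmc2 was at 81.5, 79.3 and 74.6 CPM in WT, 89.2, 80.4 and 83.5 CPM in KO fetal brain and 124 and 122 CPM at week 70. Its fetal rise of 0.19 ± 0.06 was lost without KO fetal replicate 1 (adjusted p = 0.0952) or WT replicate 2 or 3 (adjusted p = 0.0538 and 0.0924), and its rise with age was 0.45 ± 0.08. Psmc3 and Psmc4 were not called in the fetal comparison, at -0.12 and -0.14, and rose with age by 1.04 and 0.57. Without KO fetal replicate 1 or WT replicate 3, Psmc4 was called lower (adjusted p = 0.0275 and 0.0493).

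The 11 non-ATPase subunits of the 19S particle with Psm names had the largest falls in KO fetal brain among the proteasome genes. Of these genes 5 rose and 6 fell, with a median of -0.15, or 0.02 under upper-quartile scaling, and with the offsets 2 rose and 8 fell. Over all genes 30.1% rose and 32.5% fell, or 26.2% and 24.1% with the offsets. Psmd2, the large scaffold subunit that receives ubiquitin shuttles, was at 232, 239 and 221 CPM in WT, 119, 112 and 91.7 CPM in KO fetal brain and 250 and 261 CPM at week 70. The KO fetal libraries were all lower than the other 5. Psmd2 fell by 1.014 ± 0.09 in KO fetal brain (adjusted p = 2.83e-06) and rose by 1.15 ± 0.11 with age (adjusted p = 2.63e-06). Psmd3 was at 140, 139 and 129 CPM in WT, 70.2, 66.8 and 59.7 CPM in KO fetal brain and 160 and 168 CPM at week 70. It fell by 0.97 ± 0.07 (adjusted p = 5.79e-07) and rose with age by 1.23 ± 0.09 (adjusted p = 3.66e-07). Psmd11, which promotes the joining of 26S particles and was named after its values were seen, was at 73.0, 74.3 and 69.8 CPM in WT, 37.0, 40.0 and 39.9 CPM in KO fetal brain and 79.7 and 85.9 CPM at week 70. It fell by 0.80 ± 0.06 in KO fetal brain and rose by 0.99 ± 0.09 with age. With the offsets the fetal falls were 0.74 for Psmd2, 0.51 for Psmd3 and 0.79 for Psmd11, and all 3 were called under every scaling, filter, offset and left-out library run in the fetal comparison. Under the added demand of a difference of at least 1, only Psmd2 of the 3 was called.

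Among the non-ATPase subunits that rose, Psmd14, the deubiquitinase of the 19S particle, had the largest fetal difference. It was at 73.9, 82.9 and 72.0 CPM in WT, 96.6, 107 and 102 CPM in KO fetal brain and 101 and 100 CPM at week 70. It rose by 0.51 ± 0.07 (adjusted p = 0.00012), and with the offsets its value was -0.18 and called as lower (adjusted p = 0.0471). Its age difference was -0.12 and not called, and 0.83 and called with the offsets. Psmd6 was at 90.6, 95.2 and 93.2 CPM in WT, 121, 120 and 123 CPM in KO fetal brain and 90.8 and 88.9 CPM at week 70. It rose by 0.47 ± 0.05 in KO fetal brain and fell by 0.53 ± 0.08 with age (adjusted p = 0.000153), and with the offsets the values were 0.05 and 0.06 and neither was called.

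The remaining non-ATPase subunits differed little between the fetal groups. Psmd1 was at 143, 141 and 138 CPM in WT, 123, 121 and 114 CPM in KO fetal brain and 130 and 148 CPM at week 70. Its fetal fall of 0.15 ± 0.05 (adjusted p = 0.0320) was lost without KO fetal replicate 2 or 3 (adjusted p = 0.0627 and 0.0761) and without WT replicate 1 or 2 (adjusted p = 0.0589 and 0.0736). Psmd13 was at 90.2, 91.2 and 89.0 CPM in WT, 95.9, 94.2 and 91.8 CPM in KO fetal brain and 94.3 and 103 CPM at week 70. Its fetal rise of 0.15 ± 0.05 (adjusted p = 0.0266) was lost without any single one of 5 libraries, all but KO fetal replicate 3 (adjusted p from 0.0690 to 0.108), and its age difference was -0.03 and not called. Psmd4, a ubiquitin receptor, fell by 0.27, and Psmd7 fell by 0.17, a call lost without 4 of the 6 libraries (KO fetal replicates 2 and 3 and WT replicates 1 and 2, adjusted p from 0.0736 to 0.155) and down to -0.10 without KO fetal replicate 3. Psmd12 rose by 0.30, and Psmd8 rose by 0.21, which was lost without KO fetal replicate 1 or 2 or WT replicate 1 (adjusted p = 0.0900, 0.0566 and 0.0718). With age Psmd4 and Psmd7 rose by 0.64 and 0.69, while Psmd1, Psmd8, Psmd12, Psmd13 and Psmd14 were not called, though Psmd8 was called higher without week 70 replicate 2, at 0.31.

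Assembly chaperones build the particles and leave them. Psmd5, Psmd9 and Psmd10 act on the 19S base, and Psmg1 to Psmg4 on the alpha ring of the core. Psmd10, also called gankyrin, was at 12.6, 10.7 and 13.2 CPM in WT, 22.1, 22.9 and 20.4 CPM in KO fetal brain and 22.2 and 22.5 CPM at week 70. It rose by 0.93 ± 0.10 in KO fetal brain (adjusted p = 2.26e-05), or 0.12 and not called with the offsets, and its age difference was -0.06 and not called, or 1.06 and called with the offsets. Psmd9 was at 28.1, 27.2 and 24.8 CPM in WT, 33.6, 29.0 and 29.5 CPM in KO fetal brain and 41.9 and 36.5 CPM at week 70. Its fetal rise of 0.29 ± 0.09 was 0.57 with the offsets and was lost without KO fetal replicate 1 or WT replicate 3 (adjusted p = 0.0779 and 0.0602). Its age difference of 0.26 was not called, and was called without KO fetal replicate 1 or week 70 replicate 2 (adjusted p = 0.0419 and 0.0147). Psmd5 was at 51.9, 51.6 and 51.0 CPM in WT, 55.3, 51.6 and 52.6 CPM in KO fetal brain and 66.0 and 65.4 CPM at week 70. Its fetal groups overlapped and its difference of 0.13 was not called, though it was called higher with the offsets (0.20, adjusted p = 0.0167) and under upper-quartile scaling (0.31, adjusted p = 0.000762). Its age rise of 0.21 ± 0.08 (adjusted p = 0.0402) was lost without any single library (adjusted p from 0.0539 to 0.156).

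The 4 chaperones of the core had fetal differences between 0.15 and 0.82, of which 3 were called higher, against 30.1% of all genes. All 4 fell with age, against 44.4% of all genes called lower. Psmg1 was at 16.96, 15.6 and 18.9 CPM in WT, 18.7, 17.2 and 17.8 CPM in KO fetal brain and 12.1 and 12.3 CPM at week 70. It was not called in the fetal comparison and fell with age by 0.65 ± 0.13 (adjusted p = 0.00102). Psmg2 was at 17.3, 20.01 and 19.5 CPM in WT, 24.4, 23.0 and 22.4 CPM in KO fetal brain and 20.2 and 16.9 CPM at week 70. It rose by 0.38 ± 0.09 in KO fetal brain and fell by 0.42 ± 0.13 with age, a call lost without KO fetal replicate 1 or week 70 replicate 2 (adjusted p = 0.0510 and 0.0634). Psmg3 was at 11.7, 12.1 and 10.6 CPM in WT, 12.2, 13.8 and 15.1 CPM in KO fetal brain and 7.87 and 6.03 CPM at week 70. Its fetal rise of 0.34 ± 0.12 (adjusted p = 0.0289) was lost without KO fetal replicate 2 or 3 or WT replicate 1 or 3 (adjusted p from 0.0504 to 0.105), and with age it fell by 1.07 ± 0.19 (adjusted p = 0.000388). Psmg4 was at 14.9, 10.1 and 9.61 CPM in WT, 18.5, 20.9 and 18.0 CPM in KO fetal brain and 12.8 and 9.80 CPM at week 70. It rose by 0.82 ± 0.16 in KO fetal brain and fell by 0.85 ± 0.16 with age (adjusted p = 0.000586). With the offsets Psmg3 alone of the 4 was called lower with age, at -0.75. Psmg2 and Psmg4 were called higher, at 0.56 and 0.58, and Psmg1 was not called, at -0.19. Over all genes 39.1% were called higher and 39.8% lower in that fit.

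The activators bind the ends of the core in place of the 19S particle, and Psmf1 encodes the inhibitor PI31. Psme1 and Psme2 form the PA28 ring that interferon induces. Psme1 was at 55.9, 54.3 and 59.3 CPM in WT, 55.7, 57.5 and 49.5 CPM in KO fetal brain and 36.9 and 45.3 CPM at week 70. Its fetal groups overlapped, with a difference of 0.03 that was not called, and with age it fell by 0.50 ± 0.11 (adjusted p = 0.00169). Psme2 was at 5.00, 5.77 and 6.38 CPM in WT, 6.46, 6.02 and 6.54 CPM in KO fetal brain and 23.1 and 24.3 CPM at week 70. Its own counts rose with age by 1.80 ± 0.14 (adjusted p = 6.95e-07), and the sum with Psme2b fell by 0.52 ± 0.10 (adjusted p = 0.000526), or by 0.05 without a call when the offsets were added. In the fetal comparison Psme2 was not called at 0.24 and was called at 0.50 with Psme2b summed.

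Psme3, the nuclear PA28 gamma, was at 117, 121 and 115 CPM in WT, 73.9, 75.9 and 68.3 CPM in KO fetal brain and 122 and 126 CPM at week 70. It fell by 0.61 ± 0.06 in KO fetal brain (adjusted p = 6.60e-06) and rose by 0.68 ± 0.08 with age (adjusted p = 2.42e-05), with the KO fetal libraries below all others. Psmf1 followed the same order at 48.7, 50.5 and 50.1 CPM in WT, 33.9, 35.3 and 34.6 CPM in KO fetal brain and 53.4 and 51.7 CPM at week 70. Its differences were -0.44 ± 0.06 (adjusted p = 0.000133) in the fetal comparison, or -0.19 and called with the offsets, and 0.51 ± 0.09 with age. Psme4, the activator PA200, which is known for its role in germ cells, was at 167, 159 and 156 CPM in WT, 134, 138 and 143 CPM in KO fetal brain and 47.5 and 48.1 CPM at week 70. Its fetal difference of -0.13 was not called (adjusted p = 0.0743), and was called without KO fetal replicate 3 (adjusted p = 0.0348). With age Psme4 fell by 1.63 ± 0.09 (adjusted p = 3.85e-08), and by 1.32 with the offsets.

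Psma8 and Psmb11 replace a constitutive subunit in the testis and in thymic epithelium, respectively, and were near the detection floor. Psma8 held 6, 2 and 0 counts in WT, 4, 0 and 2 in KO fetal brain and 5 and 4 at week 70. Psmb11 held 3, 4 and 2 counts in WT, 0, 2 and 6 in KO fetal brain and 4 and 9 at week 70. A count of 0 allows up to 3 counts, or 0.213 CPM in the shallowest library. Neither gene was tested in either comparison. The 4 germ cell markers summed to 1.86 to 3.14 CPM in WT, 4.13 to 4.25 CPM in KO fetal brain and 6.78 to 8.83 CPM at week 70.

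Summed over subunits and scaled by transcript length, the core was higher in KO fetal brain than in WT and the 19S particle was at a similar level. The 14 core subunits summed to 818 ± 9.87 CPM per kb (n = 3) in WT, 1221 ± 42.4 (n = 3) in KO fetal brain and 1344 ± 41.4 (n = 2) at week 70. The 17 subunits of the 19S particle summed to 949 ± 22.2, 904 ± 32.7 and 1341 ± 21.3 CPM per kb in the same order. Sem1 and Adrm1, which lack Psm names, are not in this sum or in the ratio that follows. The mean level of a core subunit over that of a 19S subunit was 1.05 ± 0.013 in WT, 1.64 ± 0.037 in KO fetal brain and 1.22 ± 0.018 at week 70, and this ratio does not depend on the scaling of the libraries. With the counts of copies added, the ratios were 1.29 ± 0.019, 2.02 ± 0.040 and 1.25 ± 0.019, so that KO fetal brain was high in both and WT and week 70 came to lie close to each other. These sums are descriptions without a test, and the length and GC correction was not applied to them or to the ratio. On raw library totals in place of TMM scaling the core sums were 818, 1453 and 1034 CPM per kb and the 19S sums 950.2, 1075 and 1032, so that the fetal order of the 19S sums, and the order between KO ages of both the core and the 19S sums, depended on the scaling.

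**Figure D5:**
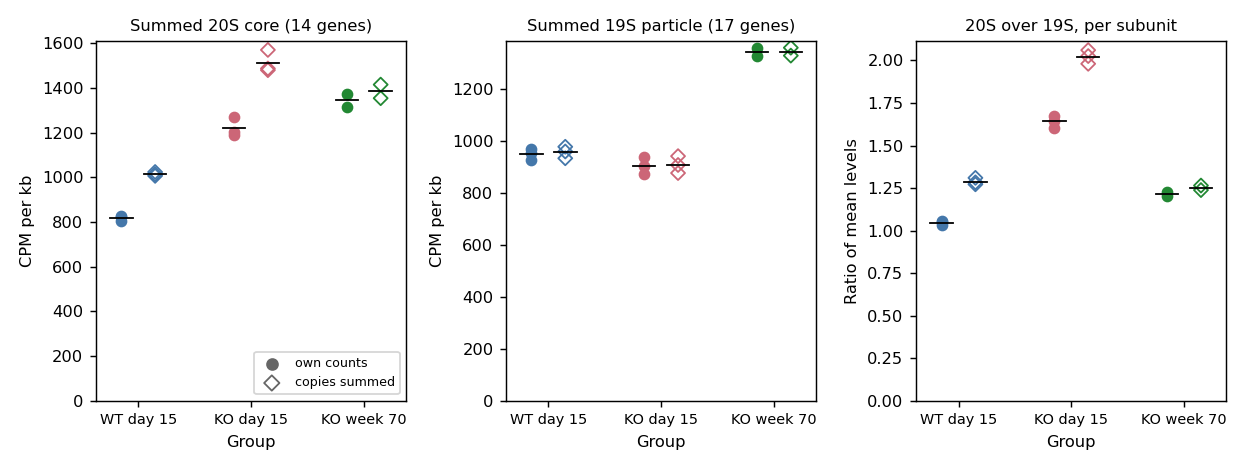
Summed CPM per kb of the 14 core subunits and of the 17 subunits of the 19S particle, and the ratio of their mean levels per subunit, 1 point per library with a bar at the group mean. Circles use each gene's own counts and diamonds add the copies, and the ratio is highest in the 3 KO fetal libraries in both.

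Single subunits differed widely in level, although each complex holds them in fixed numbers. In WT the highest levels per kb were those of Psma7 at 121, Psmb6 at 117 and Psmb4 at 95.8 CPM per kb, and the libraries of Psma7 and Psmb6 overlapped. Psma7 was highest in KO fetal brain, at 199.6 CPM per kb, followed by Psmb6 at 151 and Psma6 at 124 CPM per kb. At week 70 Psmc5 at 176 and Psmb6 at 170 CPM per kb led and overlapped, with Psmb4 next at 155. The lowest constitutive core subunit was Psma5 in both fetal groups, at 3.41 and 6.67 CPM per kb, and Psma3 at week 70, at 34.1 CPM per kb. Both have copies with counts of their own, and whether reads of these genes were counted at the copies was not tested. Lengths are those of 1 annotated transcript per gene, and Psma2 and Psma3 have annotated transcripts of 2911 and 2846 bases, the longest of the core, so that their levels per kb would be understated if brain used shorter ones. That was not tested.

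In the fit without offsets, most genes for proteins that work with the proteasome were lower in KO fetal brain, where the core was higher. Of 17 such genes measured, 4 were higher, 10 were lower and 3 were not called in KO fetal brain, with a median of -0.20, against 30.1% of all genes higher and 32.5% lower. With age 14 were higher, 1 was lower and 2 were not called, with a median of 0.67, against 37.6% of all genes higher and 44.4% lower. Ubqln2, a shuttle that brings tagged proteins to the 19S particle, had the largest fetal fall. Its level was 324 ± 4.37 CPM in WT, 72.5 ± 2.71 CPM in KO fetal brain and 300.6 ± 26.3 CPM at week 70. It fell by 2.07 ± 0.06 (adjusted p = 1.39e-08), or by 1.79 with the offsets. Nfe2l1, the transcription factor known to induce proteasome genes when proteasome activity is low, rose most with age. It was at 169 ± 2.89 CPM in WT, 54.0 ± 6.53 CPM in KO fetal brain and 507.5 ± 12.1 CPM at week 70. Its differences were -1.56 ± 0.08 (adjusted p = 7.04e-08) in the fetal comparison and 3.14 ± 0.11 (adjusted p = 1.13e-09) with age, and -0.85 and 2.34 with the offsets, all called.

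Sem1, the smallest 19S subunit, has a name outside the Psm series. It had the largest rise of these genes in KO fetal brain and was the 1 gene that fell with age. It held 853, 941 and 893 counts in WT, 1553, 1809 and 1460 in KO fetal brain and 810 and 541 at week 70. Its differences were 1.12 ± 0.08 (adjusted p = 1.07e-06) and -1.14 ± 0.14 (adjusted p = 3.08e-05), and with the offsets 0.00 without a call and 0.57 with a call as higher. Pomp, the chaperone that matures the core, and Adrm1, a ubiquitin receptor of the 19S particle, were named after their values were seen. Pomp rose by 0.75 ± 0.06 in KO fetal brain, as the core subunits did, and by 0.53 with the offsets. With age Pomp rose by 0.23 ± 0.09 (adjusted p = 0.0361), a call lost under upper-quartile scaling. Adrm1 was not called in KO fetal brain at -0.12, was called higher at 0.26 with the offsets, and rose by 2.32 ± 0.11 with age.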

How the data were processed

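Gene-level counts for 8 libraries, listed by Ensembl identifier and not normalized, were deposited by the authors in 1 table. The submitters' processing notes name FastQC, cutadapt, Trimmomatic, HISAT2, featureCounts and edgeR, and both GRCm38 and GRCm39. Which build served the table, the use of strand and the treatment of reads with several matches are not given in the sources used here. Per the labels' protocols, poly(A) RNA was captured and random-primed.

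Groups followed the sample titles. Genes kept by filterByExpr were tested with edgeR 4.0.16 (TMM scaling, two-sided quasi-likelihood F-test, Benjamini-Hochberg over all tested genes, threshold 0.05) in R 4.3.3, on the 6 fetal libraries for genotype and on the 5 KO libraries for age. CPM in the text use 1 TMM scaling over 8 libraries, which moves log2 ratios of levels by -0.09 (genotype) and 0.10 (age) against the fits. SE are those implied by the F statistic. Transcript length, GC content, positions and copies came from GENCODE M21 on GRCm38, by Ensembl identifier, with 1 principal transcript per gene. The table's identifiers matched for 33310 of 34299. Copies were annotated transcripts aligned by minimap2 2.31 over at least 50% of their length and 50% of the parent's coding sequence at 85% identity or more. Length and GC offsets were smooths fitted per library with mgcv 1.9.3. Sums with copies were chosen after seeing the data.

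The genes and lists were chosen with earlier results of these data known. Named with values are the catalytic, immunoproteasome and tissue-restricted subunits, chaperones, activators and inhibitor, and in each other class and comparison the largest called rise, the largest called fall and the smallest change. Other names were chosen after values were seen. Of the 18 partner genes, Paaf1 was not analysed here. Alternatives were RLE and upper-quartile scaling, 2 other filters, DESeq2 1.42.0, all 8 libraries in 1 fit, no haemoglobin or mitochondrial genes, a replicate block, a fold threshold and each library left out. A list of interferon and antigen presentation genes is not reported here. Scripts were tested on simulated data. A count of 0 allows up to 3 counts, which is 0.144 CPM in the deepest library and 0.213 CPM in the shallowest, and covers counting error only. Libraries of 1 group differed by more than sampling noise.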

Additional observations from a re-analysis of the deposited data

How the results depend on the processing

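Of 27 genes called higher and 9 called lower in KO fetal brain, 17 were higher with a replicate block and offsets, 5 were lower under upper-quartile scaling, and 3 were higher and 1 lower at a fold threshold of 1. With age, 23 higher and 14 lower became 36 and 4 with offsets, with or without the block, 4 lower with copies and offsets, and 11 and 3 at the fold threshold. In the other alternatives run these counts stayed within 1.5 times. Same-numbered libraries did not deviate together (correlations from -0.20 to 0.03). In the fetal comparison these pairs were at -0.15, -0.20 and -0.18, and the other pairs at 0.07 to 0.10. With 2 week 70 libraries the deviations are mirror images, so nothing can be learned there. Whether the replicate number pairs libraries was not settled by this. The replicate block alone gave 25 higher and 8 lower in the fetal comparison and 22 and 13 with age. Of the values for single genes, 1374 kept direction and call, 42 gained a call, 101 lost one and 92 changed sign. Of the class medians, 231 moved by less than the spread, 68 moved by more and 16 changed sign. The cause of these changes was not tested.

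Values that changed sign, for the 48 genes, the classes and the 5 partner genes named, were as follows on the log2 scale. With length and GC offsets in KO fetal brain, and with the replicate block added, Psma1 was at -0.077 and -0.077, Psmb2 was at -0.024 and -0.026, Psmc1 was at -0.093 and -0.097, Psmc3 was at 0.031 and 0.030, Psmd12 was at -0.17 and -0.17, Psmd14 was at -0.18 and -0.18, Psmg1 was at -0.11 and -0.11. In the same fits Psmg2 was at -0.23 and -0.23, Psme1 was at -0.030 and -0.031, Psme4 was at 0.036 and 0.036, Adrm1 was at 0.26 and 0.26, and Sem1 was at -0.0062 with the block. With age these fits gave medians of 0.78 and 0.77 for the alpha ring and 0.19 and 0.16 for the core chaperones. They gave 0.44 and 0.42 for Psma1, 0.78 and 0.77 for Psma4, 0.60 and 0.59 for Psma6, 0.074 and 0.061 for Psma7, 0.50 and 0.44 for Psmb2, 0.32 and 0.32 for Psmc6, 0.83 and 0.80 for Psmd14, 0.064 and 0.064 for Psmd6. For the others the age values were 1.06 and 0.98 for Psmd10, -0.083 and -0.087 for Psmd9, 0.56 and 0.51 for Psmg2, 0.58 and 0.55 for Psmg4, 0.57 and 0.43 for Sem1, and Psmd8 was at -0.029 with the block.

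With copies summed, a setting chosen after seeing the data, Psmb5 was at -0.16 in KO fetal brain. With age the activators then had a median of -0.51, and Psma2 was at -0.068, Psma3 was at -0.69, Psma5 was at -0.48, Psmb3 was at -0.13, Psme2 was at -0.52. With copies and offsets the fetal values were -0.24 for Psmb5, -0.098 for Psmc1, -0.18 for Psmd14, -0.031 for Psme1. The age values were medians of 0.22 for the alpha ring, 0.18 for the core chaperones and -0.054 for the activators, and 0.085 for Psma4, 0.83 for Psmd14, -0.054 for Psme2. Upper-quartile scaling gave fetal medians of 0.15 for the ATPases, 0.024 for the non-ATPases and 0.043 for the activators, with Psmc3 at 0.047, Psmc4 at 0.031, Psmd1 at 0.024, Psmd7 at 0.0061, Psme4 at 0.043, Adrm1 at 0.053. With age it gave medians of -0.17 for the catalytic subunits, -0.10 for the non-ATPases and -0.042 for the 19S chaperones, with Psma2 at -0.23, Psmb1 at -0.014, Psmb6 at -0.17, Psmd1 at -0.13, Psmd5 at -0.042, Psmd8 at -0.10, Psmd12 at -0.13, Pomp at -0.018. The ATPase fetal median was 0.0051 without haemoglobin and mitochondrial genes. Without a filter the fetal values were -0.0017 for Psmc1 and -0.062 for Psme1. In 1 fit of all 8 libraries Psme1 was at -0.010, and with age Psmd13 was at 0.072 and Psmd10 at 0.041. Psma2 with age was at -0.0086 under RLE scaling, -0.0086 by DESeq2 and -0.0075 with a mean of at least 10 counts. Leaving out 1 library at a time gave fetal ranges of -0.082 to 0.037 for the ATPase median, -0.022 to 0.14 for Psmc1 and -0.021 to 0.090 for Psme1, and age ranges of -0.015 to 0.074 for Psma2, -0.026 to 0.31 for Psmd8 and -0.078 to 0.037 for Psmd13.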

Other observations

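Promoters of proteasome genes were searched for 3 short motifs on both strands, in the RefSeq table of 250 bases before to 50 bases after each annotated start. Of the 48 genes 40 matched the table by symbol, with 43 promoters. The motif TGACNNNGC, the core of the antioxidant response element that NRF factors bind, was in 6 promoters (13.95%), those of Psmb5, Psmb6, Psmc6, Psmd9, Psmd12 and Psme4, against 12.4% of all 32851 promoters. The motif GAAA, any 2 bases, GAAA, bound by interferon regulatory factors, was in 5 promoters (11.6%), those of Psmb3, Psmd4, Psmd9, Psme1 and Psmg4, against 3.44% of all. CCAAT, bound by NF-Y, was in 14 promoters (32.6%) against 37.4% of all. A match is a description of these letters and not a binding site. The 5 genes with the GAAA motif had no shared direction with age on their own counts, with values of 1.07 for Psmb3, 0.64 for Psmd4, 0.26 for Psmd9 (not called), -0.50 for Psme1 and -0.85 for Psmg4.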
